A study of Mus musculus with 6 samples.

Results

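Nat10 and 9 genes whose products modify RNA bases or work beside it in tRNA modification were followed in ID8 cells, a line derived from the surface epithelium of the mouse ovary and used as a model of ovarian cancer. The 10 genes were taken as a list of symbols with no threshold on a measured value, and all 10 were found among the 53465 genes of the count table. They are Nat10 and Thumpd1, the Elongator subunit genes Elp2, Elp3, Elp4 and Elp5, and the cytosine, adenosine and wobble base modifier genes Nsun2, Nsun5, Trmt61a and Ctu2. The study set ID8 cells stably carrying a control guide (sgNC) against ID8 cells stably carrying a guide against Nat10 (sgNat10), and asked which transcripts change when NAT10 and the mark it places are reduced. The 6 libraries are labelled WT (replicates 4, 5 and 6) and KO (replicates 4, 5 and 6), with 3 libraries per group. WT was taken here as the control guide line and KO as the Nat10 guide line. No treatment, time point or clone number is given in the labels, and each guide is represented by 1 line, so line and guide cannot be told apart. The labels do not say whether replicates were separate cultures, so p-values reflect only how far these libraries spread, and that spread may be technical.

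NAT10 is the acetyltransferase that makes N4-acetylcytidine (ac4C) in RNA. On tRNA it works with THUMPD1, an adaptor that binds the tRNA, and it also acetylates the RNA of the small ribosomal subunit. Elongator is a complex that begins the modification of the wobble uridine of many tRNAs: ELP2 is a WD-repeat subunit, ELP3 the catalytic subunit, and ELP4, ELP5 and ELP6 form an accessory ring. CTU1 and CTU2 then add sulfur to that uridine. NSUN2 places 5-methylcytosine on tRNAs, NSUN5 places it on the RNA of the large ribosomal subunit, and TRMT61A with TRMT6 makes 1-methyladenosine in tRNAs. What was measured here is the mRNA of these proteins. The modifications themselves were not measured.

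The libraries were shallow and held many genes seen in some replicates and not in others. Totals ran from 1687466 to 2148715 counts per library in WT and from 2234305 to 3126208 in KO-labelled libraries. Every KO-labelled library was thus deeper than every WT library. Levels below are given in CPM, library counts scaled to a common total with TMM factors. Raw counts, where given, are not scaled for depth. Of 8200 genes tested, 2710 (33.05%) were at 0 in at least 1 library. In each library the number of genes at a given count did not fall steadily but passed through a peak, at 16, 23 and 29 counts in WT (replicates 4, 5 and 6) and at 42, 46 and 55 counts in KO (likewise). All 3 KO-labelled peaks were above the WT peaks (p = 0.1 in a two-sided exact permutation test, the minimum for 3 against 3 libraries). The total divided by the peak was 87120 ± 22190 (SD) in WT libraries, against 55310 ± 6113 in KO-labelled ones (n = 3 each; exact permutation p = 0.1). The count models used take no account of such a peak, so the p-values and intervals below rest on a model whose fit to it was not tested. With counts divided by the peak, rounded and scaled again by TMM on the new totals, 0 members were called. The renewed scaling sets library size anew, so that fit does not compare groups on the peak scale. For Nat10 and Thumpd1 the count is also given as a multiple of its library's peak. The part of this in any difference between groups was not tested.

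**Figure D1:**
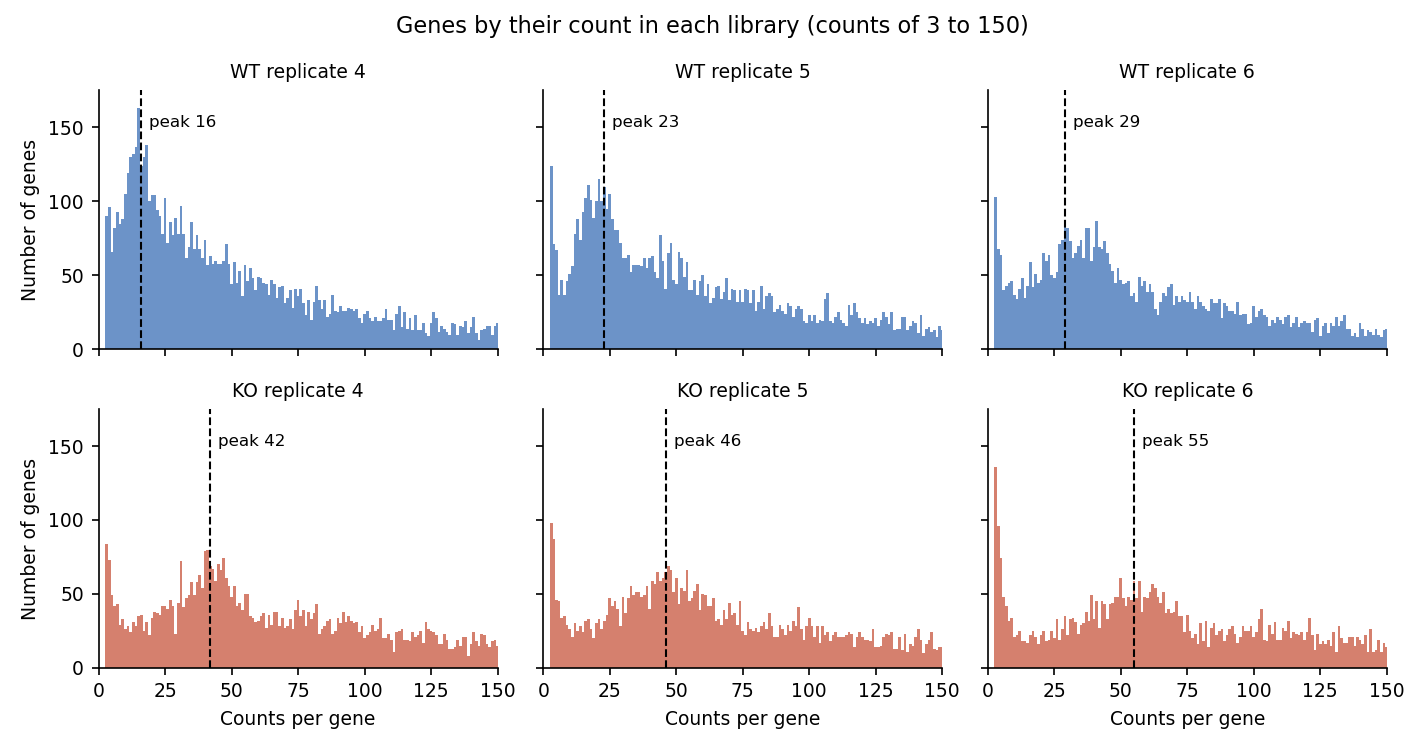
Number of genes (vertical axis) at each count from 3 to 150 (horizontal axis) in each of the 6 libraries, with WT in blue and KO in red; the dashed line marks the peak of the histogram smoothed over 5 counts. The peaks stand at 16 to 29 counts in WT and at 42 to 55 counts in KO-labelled libraries.

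The 7 markers of ID8 epithelium and mesothelium (Krt8, Krt18, Krt19, Msln, Upk1b, Upk3b and Wt1) had a count in every library, with a summed level of 6158 to 6602 CPM in WT, against 4636 to 5284 CPM in KO-labelled libraries. They did not move one way: by edgeR the keratin genes Krt18 (log2 fold change -1.74, adjusted p = 0.0195) and Krt19 (-0.92, adjusted p = 0.00440) fell and the mesothelin gene Msln rose (1.05, adjusted p = 0.0145), while the other 4 did not pass. Of those 4, Krt8 was lower and Upk1b higher without overlap (log2 fold changes -2.42 and 0.80). Of 8 immune markers, Cd3e, Cd79a and Itgam were at 0 throughout and Ptprc had 1 count in 1 library. Cd68, a lysosomal protein gene of macrophages, had 10 and 29 counts in WT replicates 4 and 5 and 0 in the other 4 libraries, and held all immune marker counts of WT. Of 5 endothelial markers, Tek had 12 counts in WT replicate 5, and no marker had more than 2 in another library. The part of these differences in the results below was not tested. The summed level of the immune list was 0 to 14.4 CPM in WT, against 0 to 1.54 CPM in KO-labelled libraries, and that of the endothelial list 0 to 5.94 and 0 to 2.15 CPM.

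None of the 8 members that could be tested passed the test. Of the 10, 8 passed the filter on low counts and were tested, and Trmt61a and Ctu2 did not pass. In edgeR's quasi-likelihood test 0 of the 8 passed an adjusted p of 0.05, where 33 of 8200 tested genes (0.402%) passed, 15 higher and 18 lower in KO-labelled libraries. With library totals in place of TMM that split was 28 higher and 16 lower. At an unadjusted p under 0.05 in this fit the members also numbered 0, against 6.49% of all tested genes. DESeq2 and limma-voom called 0 members at an adjusted p of 0.05 as well. Of the 8 members, 3 had an estimate above 0 (49.0% of all tested genes did) and 5 below it, with a median log2 fold change of -0.22 against -0.02 over all tested genes. Groups that did not overlap were seen for 2 of the 8, Elp3 and Nsun2, both lower in KO-labelled libraries, where such a separation was seen for 14.9% of all tested genes (7.93% lower). In counts simulated from these libraries, the same test found 1.41% of 2-fold, 18.1% of 4-fold and 31.4% of 8-fold changes, so a member that missed the threshold is not shown to be unchanged. The simulated counts were drawn from the fitted model, which takes no account of the histogram peak. The rates are averages over tested genes of all levels and not those of a given member. The intervals given for each member show what sizes of change the data leave possible. In bulk libraries such as these, fewer cells of a kind and less RNA per cell cannot be told apart.

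**Figure D2:**
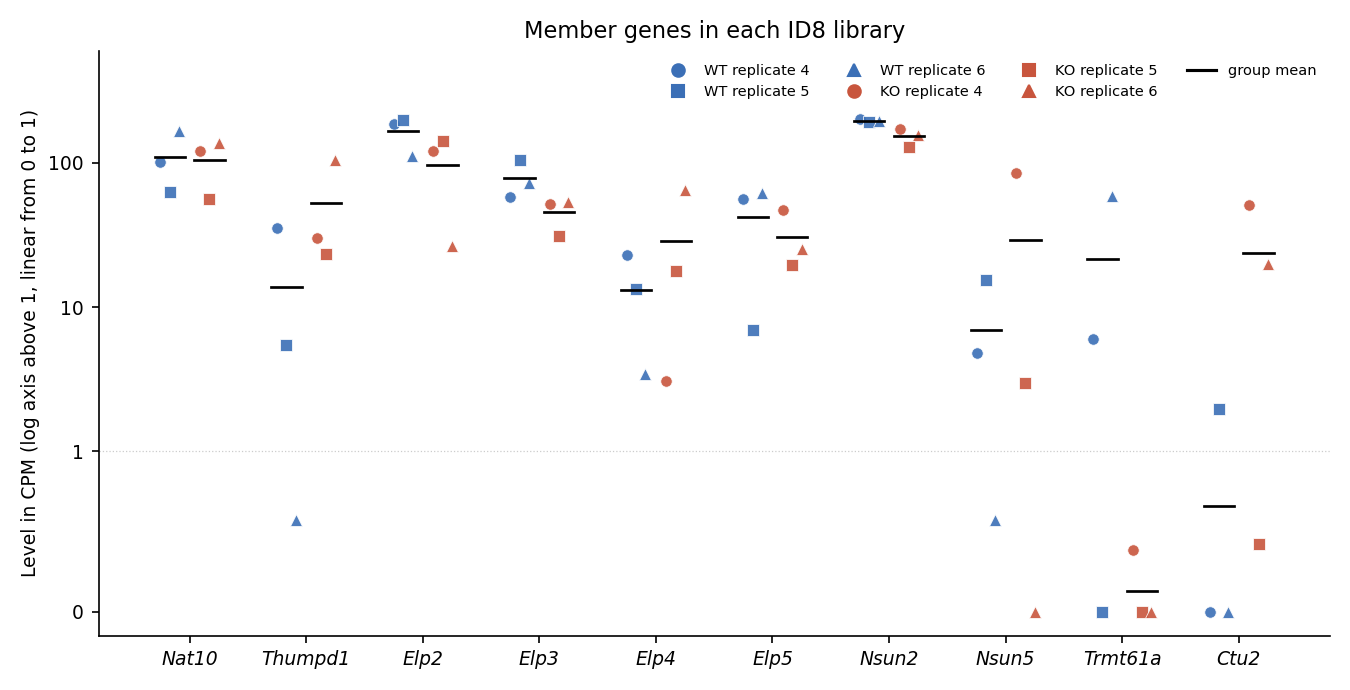
Level of each of the 10 members in every library in CPM (log axis above 1, linear between 0 and 1), WT in blue and KO in red, with replicates 4, 5 and 6 as circles, squares and triangles and group means as bars. Nat10, Elp2, Elp3 and Nsun2 are seen in all 6 libraries above 20 CPM, while Thumpd1, Elp4, Nsun5, Trmt61a and Ctu2 range over more than 10-fold or reach 0.

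Nat10, the gene the guide targets, had 168, 128 and 292 counts in the WT libraries (replicates 4, 5 and 6, the order kept below) and 315, 133 and 445 in the KO-labelled ones. On the CPM scale these are 101, 63.3 and 167 in WT, against 122, 56.4 and 137 in KO-labelled libraries. The 2 groups cover almost the same range, and replicate 5 is the lowest library of each. As multiples of the histogram peak the values were 10.5, 5.57 and 10.1 in WT and 7.5, 2.89 and 8.09 in KO-labelled libraries. Its estimate on the log2 scale was -0.07 ± 0.48 (SE). The 95% interval reached from 2.13-fold lower to 1.92-fold higher in KO-labelled libraries (edgeR adjusted p = 0.99996). The sign turned with library totals in place of TMM (0.03) and under the other changes given in the closing section. The annotation counts 7199 bases of Nat10 exon (chromosome 2, 103721256 to 103761270 in mm10, minus strand), and the position of the guide's target in it is not given in the labels, so these counts do not check the edit itself. Groups are therefore named by their labels.

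Thumpd1, the adaptor, was the member with the widest spread among those counted in all 6 libraries. It had 59, 11 and 1 counts in WT and 78, 55 and 339 in KO-labelled libraries, or 35.5, 5.44 and 0.573 CPM against 30.1, 23.3 and 104 CPM. The highest library was 182 times the lowest. WT replicate 4 lay above KO replicates 4 and 5, so the groups overlapped, and most of the difference between the means came from KO replicate 6. A log2 fold change of 1.92 ± 1.25 (SE) was fitted (interval -0.74 to 4.59; edgeR adjusted p = 0.99996), which became 0.94 without KO replicate 6 and 4.09 without WT replicate 4. As multiples of the histogram peak, WT replicates 5 and 6 stood at 0.478 and 0.0345 and KO replicate 6 at 6.16. Thumpd1 lies on chromosome 7 from 119715093 to 119720798 (minus strand).

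Across the 6 libraries Nat10 and Thumpd1 did not run together: Pearson's r of their log2 CPM was -0.10 (6 libraries, a description with no test). Among 5789 tested genes with a mean of at least 20 CPM, those whose level followed Nat10 most closely were Wdr5, a subunit of histone methyltransferase complexes (r = 0.977), Mid1ip1 (0.973), Fen1, the flap endonuclease of DNA replication (0.972), Thoc2 of the mRNA export complex THO (0.965) and Marf1 (0.963). For Thumpd1 they were Cnpy2, Ankrd26, Phka1, Rraga and Ecscr, with r from 0.964 to 0.986. With 6 points, 36 genes exceeded 0.9 for Nat10 and 92 for Thumpd1, and all points share depth and library. How many of 5789 unrelated genes would exceed 0.9 was not worked out, so these lists do not show shared regulation. Of the other members the closest to Nat10 was Elp5 (r = 0.741), at place 269 of 5789.

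The Elongator subunit genes among the members did not pass the test. Elp2 (chromosome 18) stood at 187, 198 and 112 CPM in WT, against 121, 142 and 26.7 CPM in KO-labelled libraries. KO replicate 6 lay far under the other 5, whose values overlapped. The fitted log2 difference was -0.78 ± 0.51 (SE; interval -1.88 to 0.32; edgeR adjusted p = 0.99996), and it became -0.33 without KO replicate 6.

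Elp3, the catalytic subunit, did not overlap between the groups, with 58.4, 105 and 72.7 CPM in WT, against 51.8, 31.0 and 53.8 CPM in KO-labelled libraries. The gap between the nearest libraries, WT replicate 4 and KO replicate 6, was smaller than the spread within either group. On the log2 scale the difference was -0.79 ± 0.55 (SE; interval -1.97 to 0.39; edgeR adjusted p = 0.99996), and it kept its sign in all fits made. Elp3 lies on chromosome 14 from 65530449 to 65593075 (minus strand).

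The accessory ring genes were uneven between libraries. Elp4 had 38, 27 and 6 counts in WT and 8, 42 and 212 in KO-labelled libraries, so that KO replicates 4 and 6 were the lowest and the highest of all 6 on the CPM scale (3.09 and 65.1 CPM). Its log2 fold change of 1.12 ± 1.58 (SE) had an interval from -2.26 to 4.49, and without KO replicate 6 it was -0.34. Elp4 lies on chromosome 2 from 105701027 to 105904564 and is thus on the same chromosome as Nat10.

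Elp5 stood at 56.6, 6.93 and 62.4 CPM in WT, against 47.5, 19.5 and 25.5 CPM in KO-labelled libraries, with WT replicate 5 the lowest of all. Its log2 fold change was -0.44 ± 0.95 (SE; interval -2.47 to 1.58). Elp5 lies on chromosome 11 from 69968222 to 69982517, and other genes overlap 3.27% of its exon bases. Elp6, a partner outside the 10 genes and too low to test, had 0, 2 and 1 counts in WT and 36, 43 and 0 in KO-labelled libraries.

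Set side by side per kb of exon, Elp2 and Elp3 had nearly equal means in each group, 26.4 ± 7.47 and 26.2 ± 7.93 CPM per kb in WT, against 15.4 ± 9.78 and 15.2 ± 4.21 CPM per kb in KO-labelled libraries. Their ratio was less even, at 1.53, 0.902 and 0.734 for Elp2 over Elp3 in WT and 1.12, 2.20 and 0.238 in KO-labelled libraries. Neither was thus the higher of the pair throughout. Elp4, at 3.99 ± 2.93 and 8.64 ± 9.77 CPM per kb, and Elp6, at 0.181 ± 0.173 and 3.73 ± 3.32 CPM per kb, had the lowest means of the 5 subunits shown, and in each library 1 of them was the lowest. Elp2, Elp3, Elp4 or Elp5 could be the highest of the 5, depending on the library.

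**Figure D3:**
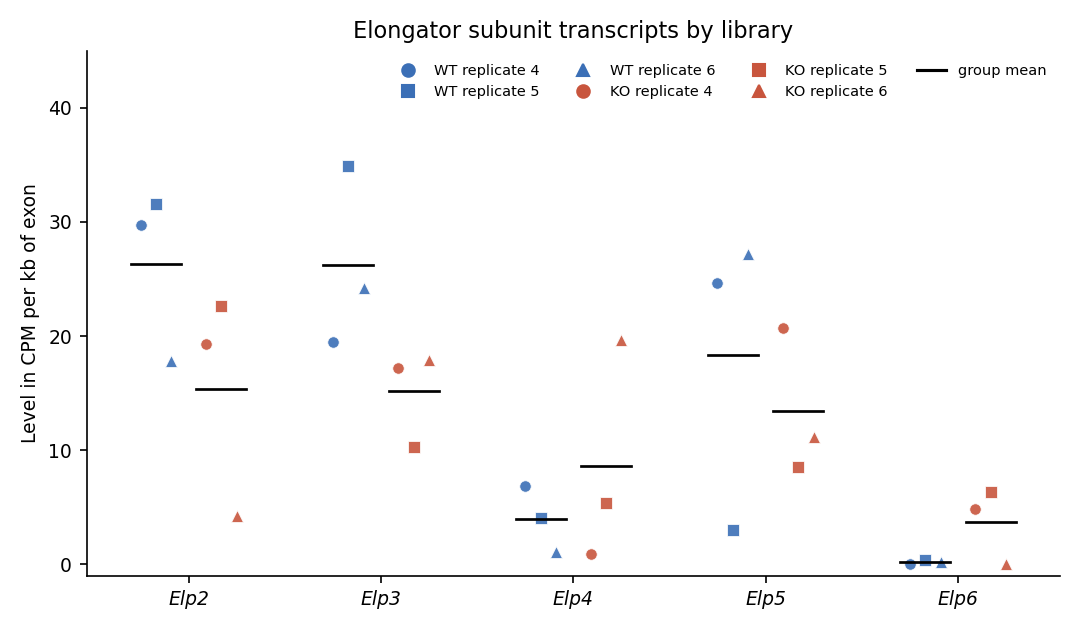
Level of 5 Elongator subunit transcripts in CPM per kb of exon (vertical axis) in every library, WT in blue and KO in red, with replicates 4, 5 and 6 as circles, squares and triangles and group means as bars. Elp3 is the one of the 5 whose groups do not overlap (19.5 to 34.9 against 10.3 to 17.9).

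Kti12, which encodes a factor that binds Elongator and its tRNAs, had 31, 98 and 54 counts in WT and no count in any KO-labelled library. Against a floor of 3 counts over the group this is at least 92.2-fold lower in KO-labelled libraries, a bound that covers counting error only, because amplified reads can be copies of 1 molecule. It did not pass in edgeR (unadjusted p = 0.00403, adjusted p = 0.304), while DESeq2 called it (adjusted p = 3.3e-04). Kti12 lies on chromosome 4, from 108847785 to 108849413, where the 29 other tested genes within 2 Mb had a median log2 fold change of -0.40 and 0 calls by edgeR. Of the 29, 6 were lower and 1 was higher without overlap, beside 7.93% and 6.94% of all tested genes. Of its exon bases 51.3% are shared with A730015C16Rik, and whether strand was used in counting is not known here. How reads in the shared bases were counted is not known either, so its counts may hold reads of the other gene or lack some of its own.

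Around the 10 members themselves, tested genes within 2 Mb had median log2 fold changes between -0.18 (Elp2, 7 neighbours) and 0.38 (Thumpd1, 14 neighbours). For Nat10 the median was 0.19 over 17 neighbours, of which 0 were called by edgeR, 3 were higher without overlap and 1 lower (6.94% and 7.93% of all tested genes).

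Nsun2, the tRNA cytosine methyltransferase, was the most evenly measured member. It stood at 202, 194 and 196 CPM in WT, against 173, 130 and 156 CPM in KO-labelled libraries, and each KO-labelled library was below each WT library. Group means were 197 ± 4.25 and 153 ± 21.9 CPM (SD over 3 libraries). On the log2 scale the estimate was -0.36 ± 0.30 (SE; edgeR adjusted p = 0.99996), and its interval, the narrowest among the tested members, reached from 2.01-fold lower to 1.21-fold higher. Nsun2 lies on chromosome 13 from 69533746 to 69635780 (plus strand), and exons of Gm17108 and Tent4a overlap 11.1% of its exon bases.

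Nsun5 was seen mainly in 1 library. It had 8, 31 and 1 counts in WT and 220, 7 and 0 in KO-labelled libraries, so that KO replicate 4 was the highest and KO replicate 6 the lowest. The log2 fold change of 2.07 ± 2.14 (SE; interval -2.49 to 6.64; edgeR adjusted p = 0.99996) became -2.19 without KO replicate 4. Nsun5 lies on chromosome 5 from 135369953 to 135376805, and exons of Pom121 overlap 15.4% of its exon bases.

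Nop2, another member of the same enzyme family that acts on ribosomal RNA, stood at 366, 375 and 252 CPM in WT, against 73.0, 275 and 197 CPM in KO-labelled libraries, where KO replicate 4 was lowest and KO replicate 5 lay within the WT range. Its log2 fold change was -0.86 ± 0.39 (SE; edgeR unadjusted p = 0.0442, adjusted p = 0.732). Nsun3 and Nsun7 were at 0 in all 6 libraries. A count of 0 allows up to 3 by counting error alone. Libraries of the same group could differ by far more, as Nsun5 did with 220 counts in KO replicate 4 and 0 in KO replicate 6.

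Trmt61a, the catalytic subunit for 1-methyladenosine, had 10, 0 and 103 counts in WT and 1, 0 and 0 in KO-labelled libraries. WT replicate 6 held most of its counts, and WT replicate 5 had none, as in 2 of the KO-labelled libraries. Over the groups this is 113 counts against 1, a ratio of 171 after scaling by the summed TMM library sizes, with a 95% counting interval of 30.0 to 6803. That interval covers counting error only and does not hold the spread between libraries. In edgeR's fit with no filter on low counts, the log2 fold change of Trmt61a was -6.895 ± 3.311 (SE; unadjusted p = 0.0373, adjusted p = 0.575). Trmt61a lies on chromosome 12 from 111678105 to 111683902 (plus strand). Its partner Trmt6, which does not bind the methyl donor, was counted in all 6 libraries, at 47.0, 143 and 49.2 CPM in WT, against 30.5, 19.5 and 50.1 CPM in KO-labelled libraries. Its groups overlapped (log2 fold change -1.26 ± 0.66, SE; edgeR adjusted p = 0.878).

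Ctu2 had 0, 4 and 0 counts in WT and 132, 1 and 65 in KO-labelled libraries. KO replicates 4 and 6 held nearly all of its counts, and KO replicate 5, at 0.424 CPM, lay below WT replicate 5 at 1.98 CPM. The groups therefore overlapped. With no filter on low counts, edgeR fitted a log2 fold change of 5.036 ± 2.895 for Ctu2 (SE; unadjusted p = 0.0819, adjusted p = 0.575). Ctu2 lies on chromosome 8 from 122476143 to 122484138 (plus strand), and exons of Piezo1 overlap 47.3% of its exon bases. How reads in the shared bases were counted is not known, so the counts of Ctu2 may hold reads of Piezo1 or lack some of its own. Its partner Ctu1 had 10, 11 and 1 counts in WT and 0, 0 and 47 in KO-labelled libraries. The sulfur carrier Urm1 had 35, 5 and 24 counts in WT against 0, 22 and 124, and the enzyme that activates it, Mocs3, had 50, 17 and 0 against 1, 15 and 0.

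**Figure D4:**
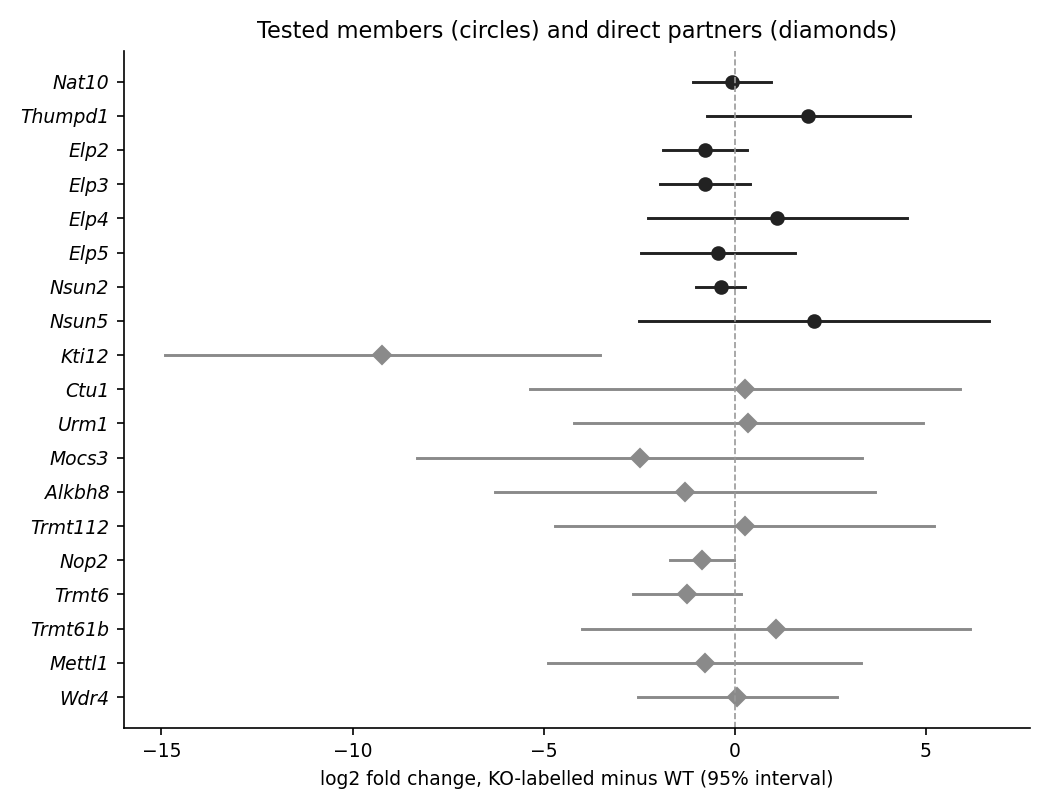
Log2 fold change of KO-labelled over WT libraries (horizontal axis) with its 95% interval from edgeR's quasi-likelihood fit, for the 8 tested members (black circles) and 11 tested direct partners (grey diamonds). The intervals of all 8 members cross 0, and that of Nsun2 is the shortest among the members.

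Ordered by their mean level over the 6 libraries per kb of exon, the members ran from Nsun2 (30.5 ± 4.86 CPM per kb) through Elp2 (20.9 ± 9.83), Elp3 (20.7 ± 8.30), Elp5 (15.9 ± 9.71), Nat10 (14.96 ± 5.96), Thumpd1 (11.1 ± 12.4) and Elp4 (6.31 ± 6.94) to Trmt61a (4.48 ± 9.73), Nsun5 (4.196 ± 7.70) and Ctu2 (2.37 ± 3.97; SD over 6 libraries for each). The ranges of every pair of neighbours in this order overlapped. Nsun2 was above Elp2 in 5 of 6 libraries and Nat10 above Thumpd1 in 5 of 6, while Elp2 was above Elp3 in 3 of 6, so the order in the middle of the list is not fixed by these libraries. The coefficient of variation over the 6 libraries was 15.9% for Nsun2, 39.9% for Nat10 and 40.1% for Elp3, and 113% for Thumpd1, 110% for Elp4, 184% for Nsun5, 217% for Trmt61a and 168% for Ctu2.

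Detection differed between the members. Of the 10, 7 had a count in all 6 libraries, Nsun5 in 5, Ctu2 in 4 and Trmt61a in 3. By library, 9, 9 and 9 members had a count in WT, against 10, 9 and 8 in KO-labelled libraries. Counted against each library's histogram peak, 7, 6 and 6 members reached it in WT and 8, 6 and 8 in KO-labelled libraries. Nat10, Elp2, Elp3 and Nsun2 reached the peak in all 6 libraries, Elp5 in 5, Thumpd1 in 4, Elp4 in 3, Nsun5 and Ctu2 in 2 and Trmt61a in 1.

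Other tRNA modification genes were taken from 5 lists, of which 74 genes are described, with 73 found by symbol and 59 tested. By edgeR, 0 of the 59 passed, beside 0.402% of all tested genes, while limma-voom called 0 and DESeq2 called 1, Kti12. At an unadjusted p under 0.05 there were 3, or 5.09%, beside 6.49% of all tested genes, and all 3 were lower: Kti12, Nop2 and Rpusd2. The estimates were above 0 for 30 genes and below 0 for 29, with a median of 0.02 on the log2 scale. Groups did not overlap for 10.2% of them, 3 higher and 3 lower, beside 14.9% of all tested genes. Neither share exceeded that of all tested genes.

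By list, 0 of 9 Elongator and wobble uridine genes, 0 of 20 base and ribose methyltransferases, 0 of 9 pseudouridine synthases, 0 of 4 further 5-methylcytosine methyltransferases and 0 of 17 deaminase, queuine, dihydrouridine and purine modifier genes passed in edgeR, with median log2 fold changes of -0.02, 0.09, -0.28, -0.75 and 0.15. These medians are the same with Kti12 and Rpusd2 at their bounds. Rpusd2, a pseudouridine synthase, had 20, 25 and 45 counts in WT and 0 in every KO-labelled library. Against the same floor of 3 counts over the group this is at least 45.3-fold lower, a bound that again covers counting error only. The spread between libraries is not in that bound, and the 95% interval from edgeR on the log2 scale reached from -14.95 to -1.56 (unadjusted p = 0.0197, adjusted p = 0.547). Cdkal1, which thiomethylates a tRNA for lysine, stood at 20.7 ± 10.6 CPM in WT, against 62.2 ± 20.9 CPM in KO-labelled libraries, without overlap (SD, n = 3 libraries each; edgeR adjusted p = 0.830). Thumpd3, a tRNA guanosine methyltransferase with the same kind of tRNA-binding domain as Thumpd1, stood at 44.95 ± 13.9 and 94.9 ± 46.2 CPM (edgeR adjusted p = 0.858). Trmt1, a guanosine dimethyltransferase, stood at 46.5 ± 12.8 CPM in WT, against 19.6 ± 1.89 CPM in KO-labelled libraries without overlap (edgeR adjusted p = 0.99996). Trmt2a and Trmt12 also had estimates below 0, with groups that overlapped. Their log2 fold changes were -0.88 ± 0.62 and -1.56 ± 1.28 (SE; edgeR adjusted p = 0.99996 for each).

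Genes of these lists were more often at 0 in some library than the members tested. Of the 59 tested, 31 (52.5%) were at 0 in at least 1 library, where the share was 33.05% of all tested genes and 1 of the 8 tested members. The 95% interval of the log2 fold change was correspondingly wide, with a median width of 8.08 for these genes, 4.23 for all tested genes and 3.20 for the members. Mettl1, of the tRNA guanosine methyltransferase with Wdr4, had 60, 18 and 35 counts in WT and 59, 35 and 0 in KO-labelled libraries, and Wdr4 had 48, 65 and 51 against 135, 99 and 2, so KO replicate 6 held at most 2 counts of either. Trmt61b had 19, 25 and 0 counts against 0, 80 and 55, Trmt112, the helper of several methyltransferases, 41, 1 and 11 against 0, 47 and 58, and Alkbh8, which completes the wobble uridine side chain, 39, 15 and 10 against 1, 4 and 41.

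**Figure D5:**
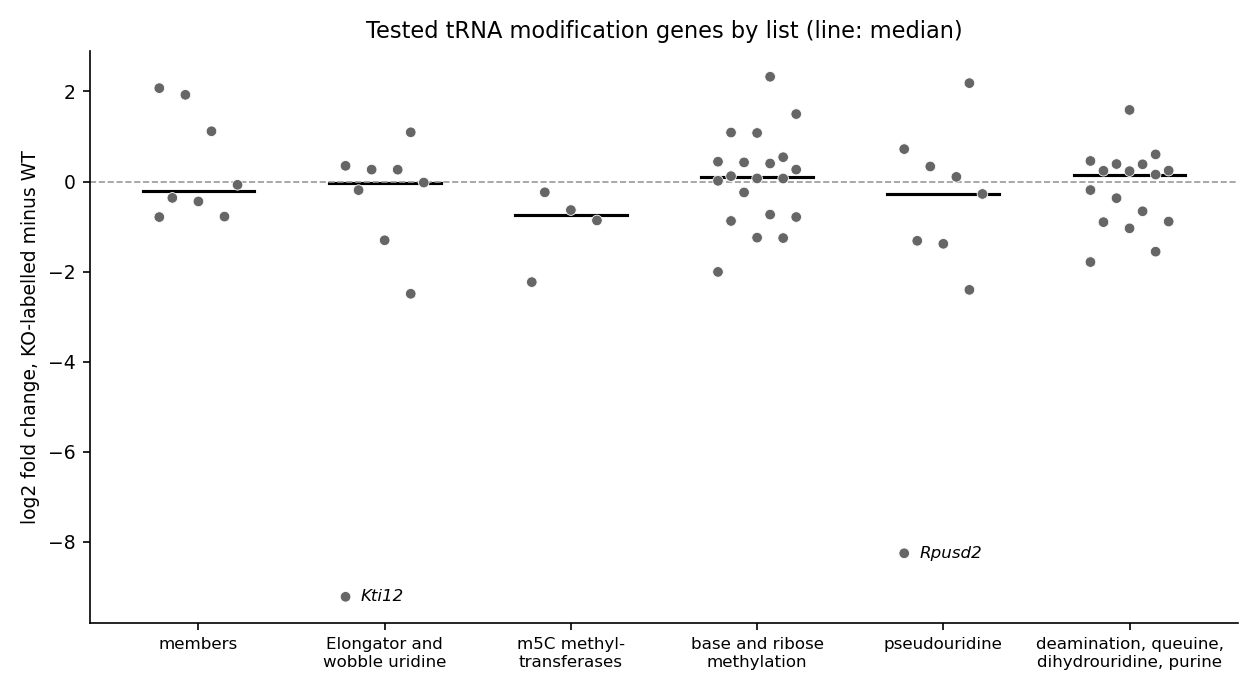
Log2 fold change of KO-labelled over WT libraries (vertical axis) for each tested gene of the 8 members and of the 5 other lists (59 genes); bars are medians. Points lie on both sides of 0 in every list but that of 5-methylcytosine methyltransferases, and Kti12 and Rpusd2 lie lowest because they had no count in KO-labelled libraries, where the fitted value depends on the prior count.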

How the data were processed

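Gene expression was measured by poly(A) RNA sequencing in 6 libraries. Per the submitters' processing notes, fastp, HISAT2 2.0.5 and featureCounts 1.5.0-p3 were used with build mm10. Not given in the sources used here are the settings, strand mode and any duplicate removal. What the authors deposited is a table of raw counts for each gene, with no normalization. Columns were matched to samples through the labels, and 0 columns of other samples were present. Of 53465 gene IDs, 53360 matched GENCODE M21 (mm10), which gave symbols, positions, exon lengths and exon overlap.

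Genes were filtered with filterByExpr (minimum count 10), which left 8200, scaled by TMM and tested with edgeR 4.0.16 in R 4.3.3 (quasi-likelihood, robust, group as the only term, two-sided, Benjamini-Hochberg over all tested genes, threshold 0.05). Standard errors and 95% intervals come from the same fit. CPM use TMM-scaled totals. A single count stood for 0.307 to 0.602 CPM, depending on the library. The test was tried on data simulated from its own fitted model (5 runs, 200 of 8200 genes changed), where 6.32% of its calls were false. That share may differ in the real counts.

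Alternatives were DESeq2 1.42.0, limma-voom (limma 3.58.1), other scaling and filters, log2 CPM with a prior count of 2, a replicate block and leaving out each library. Division by the histogram peak (rounded, then TMM on the new totals) and thinning to 1687466 counts were added after seeing the data. Genes named are the 10 members, 12 direct partners fixed by name, genes with the smallest p among the other lists, and the 5 whose pattern was most like Nat10 and Thumpd1. Nsun3 and Nsun7 are named outside this rule, chosen after seeing their values. The members and lists were chosen with earlier results of these data known. A further listed gene is not reported here and is left out of the counts over the lists.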

Additional observations from a re-analysis of the deposited data

How the results depend on the processing

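None of the tested members was called in any of the 15 other fits with a test (9 on all libraries, 6 without 1 library). The unadjusted p of Elp2 was 0.0265 with limma-voom, 0.0305 with the replicate block in edgeR and 0.03 in edgeR on counts divided by the histogram peak. That of Thumpd1 was 0.0176 in edgeR without WT replicate 4. The other tested members had no unadjusted p under 0.05 in these fits. Thumpd1, Elp2, Elp3 and Nsun2 kept their sign in all fits made. The log2 fold change of Nat10 was 0.0195 with limma-voom and 0.0263 with library totals. With counts divided by the histogram peak and then scaled again by TMM, it was 0.0148. With 1 library left out it ran from -0.35 to 0.35 (0.35 without WT replicate 6, 0.23 without KO replicate 5). Elp5 was 0.19 with limma-voom. Nsun5 was -0.41 with limma-voom and -0.71 with the replicate block, and ran from -2.19 to 3.42 with 1 library left out. Elp4 ran from -0.34 to 1.77. The cause of these turns was not tested. Over all genes 33 were called, against 234 with DESeq2, 91 with no filter on low counts, 105 with counts divided by the histogram peak, and 6 to 29 with 1 library left out. Of the other tRNA modification genes DESeq2 called 1 (Kti12) in place of 0, and 0 were called in the 14 other fits. Deviations of same-numbered WT and KO libraries had r from -0.0167 to -0.00258, and those of the other pairs r from -0.0204 to 0.0284. These values show no pairing by number. They cannot exclude it, because the spread between libraries could hide a shared deviation. The replicate block called 38 genes, among them 0 members and 0 of the other tRNA modification genes described. The highest r of deviations was that of WT replicate 4 with KO replicate 5 (0.0284), which is itself near 0. With every library thinned to the smallest total, Thumpd1 was 1.94 and Elp4 1.07.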
